A study of Rattus norvegicus with 43 samples.

Results

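Collagen genes were followed in A7r5 cells, a smooth muscle line derived from embryonic rat aorta, as the folic acid of the culture medium and the time in culture were varied. The collagen genes were all genes whose symbol on the array consists of Col, a number, the letter a and a number. There were 41 of them among 14217 named genes, read by 58 probe sets, the groups of short probes that each measure 1 transcript. Where several probe sets named a gene, the one with the highest mean over the 43 arrays stood for it. Levels are the deposited log2 values, on which a difference of 1 is a doubling, and a level under 4 was taken as background. Folic acid was present at 2.5 ng/ml (deficient), 10 ng/ml (sufficient) or 100 ng/ml (excess) in a custom DMEM, and RNA was taken after 7, 14 or 21 days. Each group had 5 arrays, except deficient and excess medium at day 7 with 4 each. All groups are of this single line, and no untreated or other medium was included, so sufficient medium served as the reference. Since the labels do not tell whether replicates came from separate cultures, p-values here cover no more than the spread among these arrays, and that spread may be technical.

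Collagens are trimers of chains wound in a triple helix, built in the endoplasmic reticulum and secreted. Fibrillar collagens (types I, III, V and XI among those described here) form the load-bearing fibres of the vessel wall, and FACIT collagens decorate the surface of these fibres. Type IV chains build the network of the basement membrane that surrounds each smooth muscle cell, and type VI forms beaded microfibrils that link cells and basement membrane to the fibres. Proline and lysine are hydroxylated, which for proline stabilises the helix. Lysyl oxidases crosslink the finished fibres, and matrix metalloproteinases and integrins cut and bind them.

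Of the 41 genes, 21 passed the filter, a level above 4 on at least 4 arrays, and 20 did not. Passing were 7 of 11 fibrillar genes (Col1a1, Col1a2, Col3a1, Col5a1, Col5a2, Col5a3 and Col11a1), 4 of 5 type IV genes of the basement membrane network (Col4a1, Col4a2, Col4a5 and Col4a6), and 3 of 5 genes of the beaded microfibril (Col6a1, Col6a2 and Col6a3). Among FACIT collagens 4 of 9 passed (Col9a1, Col12a1, Col14a1 and Col16a1). The multiplexin Col18a1, whose protein lies in the basement membrane zone, the short-chain network collagen Col8a1 and the transmembrane collagen Col25a1 were the only passing members of their classes, which hold 2, 3 and 4 genes. Neither anchoring-fibril or other gene (Col7a1, Col26a1) passed. The filter was met through some groups only for Col14a1 (above 4 on 14 arrays), Col25a1 (15 arrays) and Col9a1 (17 arrays). These had to differ between groups to be tested at all. Col18a1 was above 4 on 30 arrays, with levels of 3.47 to 4.86 around the limit, and could have passed without such a difference.

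The 20 genes at background were Col2a1, Col4a4, Col6a5, Col6a6, Col7a1, Col8a2, Col9a2, Col9a3, Col10a1, Col11a2, Col13a1, Col15a1, Col17a1, Col19a1, Col20a1, Col22a1, Col23a1, Col24a1, Col26a1 and Col27a1. Their mean levels over the arrays lay between 1.97 (Col10a1) and 3.33 (Col15a1). A level under 4 describes the probe set used. For Col6a2, which passed the filter, a second probe set did not exceed 3.03 on any array. Col2a1 and Col10a1, the collagens of cartilage and of hypertrophic cartilage, did not exceed 2.91 and 2.23 on any array. Col8a2, which encodes the partner chain of Col8a1 in type VIII collagen, reached 4.29 on 1 array and was below 4 on the rest.

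Markers of the labelled cell type were present. All 10 smooth muscle markers were above background in every group, among them Acta2 and Myh11, and summed to log2 levels of 15.90 to 16.10 in sufficient and 15.63 to 15.68 in excess medium at day 21. All 5 chondrocyte and 4 osteoblast markers on the array were at background in every group. Of 8 fibroblast markers 5 were at background in every group (Pdgfra, Dpt, Fap, Tcf21 and Pi16). Thy1 and S100a4 were above background in every group. The summed level of the 8 was 13.57 to 13.84 in sufficient and 13.82 to 14.00 in excess medium at day 21. A gene of this list that differed between media was Lum, which encodes the collagen-binding proteoglycan lumican. It was 2.42 ± 0.27 in sufficient and 5.30 ± 0.63 in excess medium at day 21 (SD, n = 5 and 5; limma, adjusted p = 1.2e-14). The sufficient level is at background, so Lum had to differ between groups to be tested at all. The size of its difference depends on values below the background limit. Of 7 skeletal muscle markers 3 were at background in every group and 1 was above it in every group. The summed level of the 7 was 8.35 to 8.56 at day 7 and 9.17 to 9.34 at day 21 in sufficient medium. It was 6.98 to 7.34 in excess medium at day 21. That of 7 epithelial markers, 5 of them at background in every group, was 7.70 to 7.91, 8.73 to 9.16 and 8.19 to 8.47 in the same order, without overlap. That of 6 endothelial markers, 4 at background, was 6.62 to 6.80, 6.22 to 6.46 and 6.08 to 6.18, and that of 6 macrophage markers, 5 at background, was 6.19 to 6.69, 6.15 to 6.78 and 6.77 to 6.90. The part of these shifts in the collagen differences was not tested, and in such bulk RNA fewer cells of a kind and less RNA per cell cannot be told apart. The difference between the 3' and 5' probe sets of beta-actin, used here as a sign of RNA quality, had medians of 2.37 and 2.30 in excess medium at days 14 and 21 and of 1.66 to 1.91 in the other groups.

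A running serial in the sample titles mattered for this gene family. Serials up to 45 follow the order of the groups, and the 11 arrays with serials above 45 stand outside that order: 3 of the 5 excess arrays of day 14, 2 of 5 each of the sufficient and excess arrays of day 21, none of the deficient arrays of days 7 and 21, and 1 in each other group. The labels do not say what the serial counts; reading the higher serials as a later series of arrays is an assumption made here. In a limma fit of the 9 group means with this series as a further term, 11 of the 21 collagen genes were lower in the later series and 1, Col4a5, was higher at an adjusted p of 0.05 (Benjamini-Hochberg over 9095 genes), where 13.5% of all genes were lower and 15.1% higher. The median over the 21 genes was -0.13 log2, against 0.02 over all genes. This comparison was added after the values had been seen.

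Fibrillar and basement membrane chains were among the genes with a lower term. It was -0.62 ± 0.11 for Col5a1 (SE, adjusted p = 2.4e-04), -0.44 ± 0.08 for Col1a1, -0.53 ± 0.11 for Col4a2, -0.50 ± 0.12 for Col6a2 and -0.25 ± 0.06 for Col3a1. For 8 genes (Col1a1, Col1a2, Col3a1, Col4a1, Col4a2, Col5a1, Col6a3 and Col18a1) each of the 11 later arrays lay below the mean of the earlier arrays of its own group. Col6a1, Col16a1, Col25a1 and Col14a1 showed no such shift beyond their error, with terms of -0.02 ± 0.08, 0.05 ± 0.06, 0.13 ± 0.10 and 0.08 ± 0.07. The serial alone did not mark every low array: in sufficient medium at day 14, Col1a1 was 14.34, 14.32 and 14.20 on replicates 1 to 3 and 13.61 and 13.63 on replicates 4 and 5, of which only replicate 4 belongs to the later series. Comparisons of media are therefore also given with the series as a term, or within serials up to 45, where that moved a call.

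**Figure D1:**
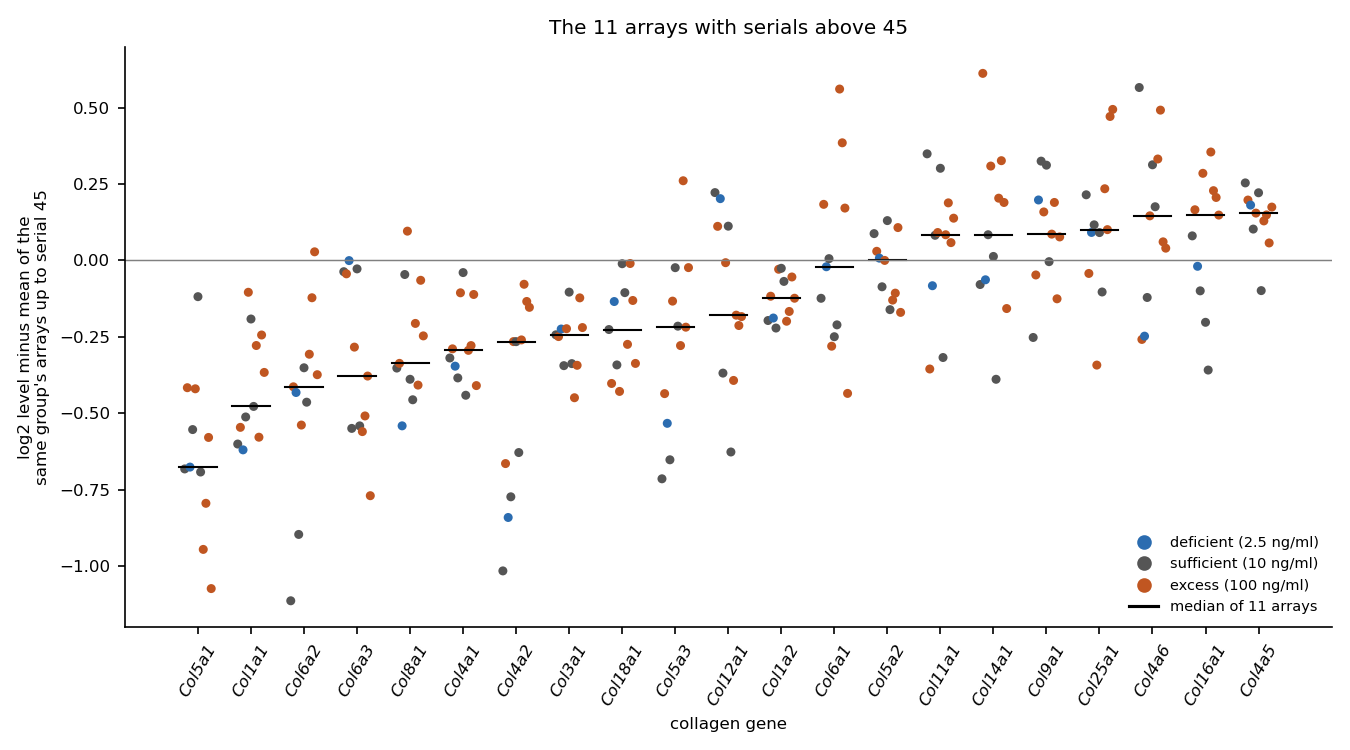
Points show, for each of the 21 collagen genes that passed the filter, the 11 arrays with serials above 45. Each is the log2 level minus the mean of the same group's arrays up to serial 45. Colours give the medium and black lines the medians. Col5a1, Col1a1 and Col4a2 lie below 0 on all 11 arrays, whereas Col6a1, Col16a1 and Col25a1 scatter on both sides of 0.

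Some collagen genes share a promoter region or lie next to each other. Col4a1 and Col4a2, whose proteins assemble in one trimer, face away from each other on chromosome 16, and RefSeq places their starts only 76 bases apart. Col6a1 and Col6a2 on chromosome 20 and Col3a1 and Col5a2 on chromosome 9 are neighbours with no protein-coding gene between them. The promoter windows are shown for the head-to-head pair, for 2 of the type VI genes, which were called with time and in excess medium, and for Col1a2, which was called in no comparison of media, as the 250 bases before the annotated start (for the pair, the whole space between the starts). Capitals mark matches, on either strand, to 4 short motifs. These were the CCAAT box, the GC box, searched as GGGCGG, the TATA box, searched as TATAAA, and the AP-1 site, searched as TGANTCA. The sequences are from RefSeq, build GRCr8, where 15 of the 21 tested genes had an entry.
Col4a1 to Col4a2, chr16:84885521-84885596, plus strand: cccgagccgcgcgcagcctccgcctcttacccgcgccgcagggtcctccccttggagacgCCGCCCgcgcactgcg
Col6a1, chr20:11905440-11905689, plus strand: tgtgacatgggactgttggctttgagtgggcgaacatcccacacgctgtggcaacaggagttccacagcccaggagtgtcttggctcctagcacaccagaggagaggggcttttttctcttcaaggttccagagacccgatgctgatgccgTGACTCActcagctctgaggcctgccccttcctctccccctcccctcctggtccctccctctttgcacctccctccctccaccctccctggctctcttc
Col6a3, chr9:98886959-98887208, minus strand: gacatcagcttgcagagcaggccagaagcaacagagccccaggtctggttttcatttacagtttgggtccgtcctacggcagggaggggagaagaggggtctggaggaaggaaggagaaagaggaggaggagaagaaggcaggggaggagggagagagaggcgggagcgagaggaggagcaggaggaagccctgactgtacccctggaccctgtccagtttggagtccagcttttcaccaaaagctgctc
Col1a2, chr4:33518307-33518556, plus strand: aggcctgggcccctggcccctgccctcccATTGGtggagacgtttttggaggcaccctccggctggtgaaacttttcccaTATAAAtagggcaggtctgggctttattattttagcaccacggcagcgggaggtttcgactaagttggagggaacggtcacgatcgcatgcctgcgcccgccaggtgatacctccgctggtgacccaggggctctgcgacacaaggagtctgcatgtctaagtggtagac

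The pair window held 1 GC box and none of the other letters, and 18.1% of windows of 76 bases before 33469 annotated starts held a GC box. The Col6a1 window held 1 AP-1 match, 99 bases before the start, which 6.34% of windows of 250 bases hold. The Col6a3 window held none of the 4 motifs, and the Col1a2 window held 1 CCAAT and 1 TATA match, present in 34.0% and 12.9% of windows. Among the 15 tested genes with an entry, 10 held a GC box, 5 a CCAAT box, 1 a TATA box and 1 an AP-1 site. These matches describe letters within the windows only.

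In sufficient medium, from day 7 to day 21 Col6a3, Col25a1, Col9a1, Col6a1 and Col18a1 rose, and Col14a1, Col5a3, Col16a1, Col1a1, Col5a2, Col8a1 and Col4a6 fell. These 12 of 21 calls (5 higher, 7 lower) were made with limma at an adjusted p of 0.05 over 9095 genes, of which 62.6% were called (29.6% higher and 33.1% lower). The median difference was -0.12 over the 21 collagen genes and -0.02 over all genes. The called share of the collagen genes was thus near that of all genes. By class, 3 of 7 fibrillar genes fell and 0 rose, and 2 of 3 type VI genes rose, which was not tested against that share.

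Col6a3 encodes the largest chain of type VI collagen. Its levels on the 5 arrays in sufficient medium were 7.61, 7.57, 7.16, 6.90 and 7.27 at day 7, 9.04, 9.59, 8.90, 8.50 and 8.67 at day 14, and 9.94, 9.49, 10.20, 9.94 and 10.00 at day 21. Only the day 14 and day 21 ranges met, at 9.59 and 9.49, and the rise from day 7 was 2.62 ± 0.19 (SE) or 6.13-fold (limma, adjusted p = 2.8e-15). Col6a1, the α1 chain of the same trimer, went from 4.46, 4.43, 4.20, 4.31 and 4.23 at day 7 to 5.53, 5.13, 5.21, 5.28 and 5.09 at day 21. These ranges did not overlap, and the rise was 0.92 ± 0.12 from a level just above background. Col6a2, the remaining chain and the neighbour of Col6a1, was 6.63, 6.79, 6.47, 6.28 and 5.43 at day 7 and 7.51, 6.40, 6.74, 6.35 and 6.52 at day 21. Its difference of 0.39 ± 0.23 missed the threshold (adjusted p = 0.142), and it was 0.49 with the array series as a term (adjusted p = 0.0258).

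Col25a1 encodes a transmembrane collagen best known from neurons. Its levels of 2.62, 2.72, 2.80, 2.69 and 2.92 at day 7 were all at background, and those of day 21, 3.87, 4.20, 4.25, 4.79 and 4.39, lay around the background limit. The difference of 1.55 ± 0.16 was called, and its size depends on values below that limit. Col9a1, a cartilage FACIT chain, moved likewise from 3.42, 3.35, 3.38, 3.40 and 3.14 to 3.90, 4.36, 4.40, 4.79 and 4.68, a difference of 1.09 ± 0.13. Col18a1, the precursor of endostatin, rose by 0.54 ± 0.10, from 3.75 ± 0.17 to 4.29 ± 0.06 (SD, n = 5 and 5).

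Among the falling genes, Col14a1, a FACIT collagen of fibril surfaces, went from 4.31, 4.78, 4.68, 4.16 and 4.40 at day 7 to 2.38, 1.95, 2.33, 2.32 and 2.36 at day 21. All day 7 values were above and all day 21 values below the background limit, and the fall was 2.20 ± 0.12 as measured. Col5a3, a fibrillar chain of some type V trimers, had 6.43, 6.87, 6.35, 6.27 and 5.77 at day 7 and 5.29, 4.81, 4.87, 4.92 and 5.00 at day 21. The groups did not overlap, and the gene fell by 1.36 ± 0.16. Col16a1, another FACIT collagen, fell by 0.53 ± 0.10, with 6.99 to 7.22 at day 7 and 6.31 to 6.82 at day 21. Col5a2, the fibrillar chain with the smallest SE, fell by 0.48 ± 0.05, and its second probe set, of lower level, differed by -1.06.

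Col1a1 and Col1a2 encode the chains of type I collagen, the main fibrillar collagen of the vessel wall. Col1a1 was 14.18, 14.19, 14.14, 14.14 and 13.56 at day 7 and 13.92, 13.18, 13.63, 13.41 and 13.46 at day 21, where only the day 7 array of the later series overlapped with day 21. It fell by 0.52 ± 0.17 (adjusted p = 0.00743), whereas its second probe set differed by -0.03, and the mean of both by -0.28 (adjusted p = 0.0754). Col1a2 differed by -0.12 ± 0.07 and was not called. Col8a1, made by vascular smooth muscle in growth and injury, fell by 0.38 ± 0.13, and by 0.29 within serials up to 45 (adjusted p = 0.0721). It fell by 0.31 (adjusted p = 0.0525) without replicate 2 of day 21. Col4a6 fell by 0.36 ± 0.15, and the call was lost within serials up to 45, with the beta-actin 3' to 5' difference as a term (-0.32, adjusted p = 0.0557) and without replicate 4 or 6 of day 7 or replicate 1 or 3 of day 21 (-0.25 to -0.35).

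The course was not uniform between the 2 steps. From day 7 to day 14, 8 collagen genes rose and 3 fell, where 44.6% of all genes were called (19.9% higher and 24.7% lower), and from day 14 to day 21, 4 rose and 11 fell, where 34.6% were called (17.9% higher and 16.7% lower). Col3a1, the type III fibrillar collagen of distensible tissues, rose by 0.44 ± 0.11 and then fell by 0.54 ± 0.11, ending at a difference of -0.10 ± 0.11 from day 7. Col11a1, a minor fibrillar chain, rose by 0.65 ± 0.15 and then fell by 0.67 ± 0.15. Col4a5, a basement membrane chain, rose by 0.22 ± 0.08 and fell by 0.38 ± 0.08. Without replicate 2 of day 7 the rise of Col4a5 was 0.18 (adjusted p = 0.0688).

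**Figure D2:**
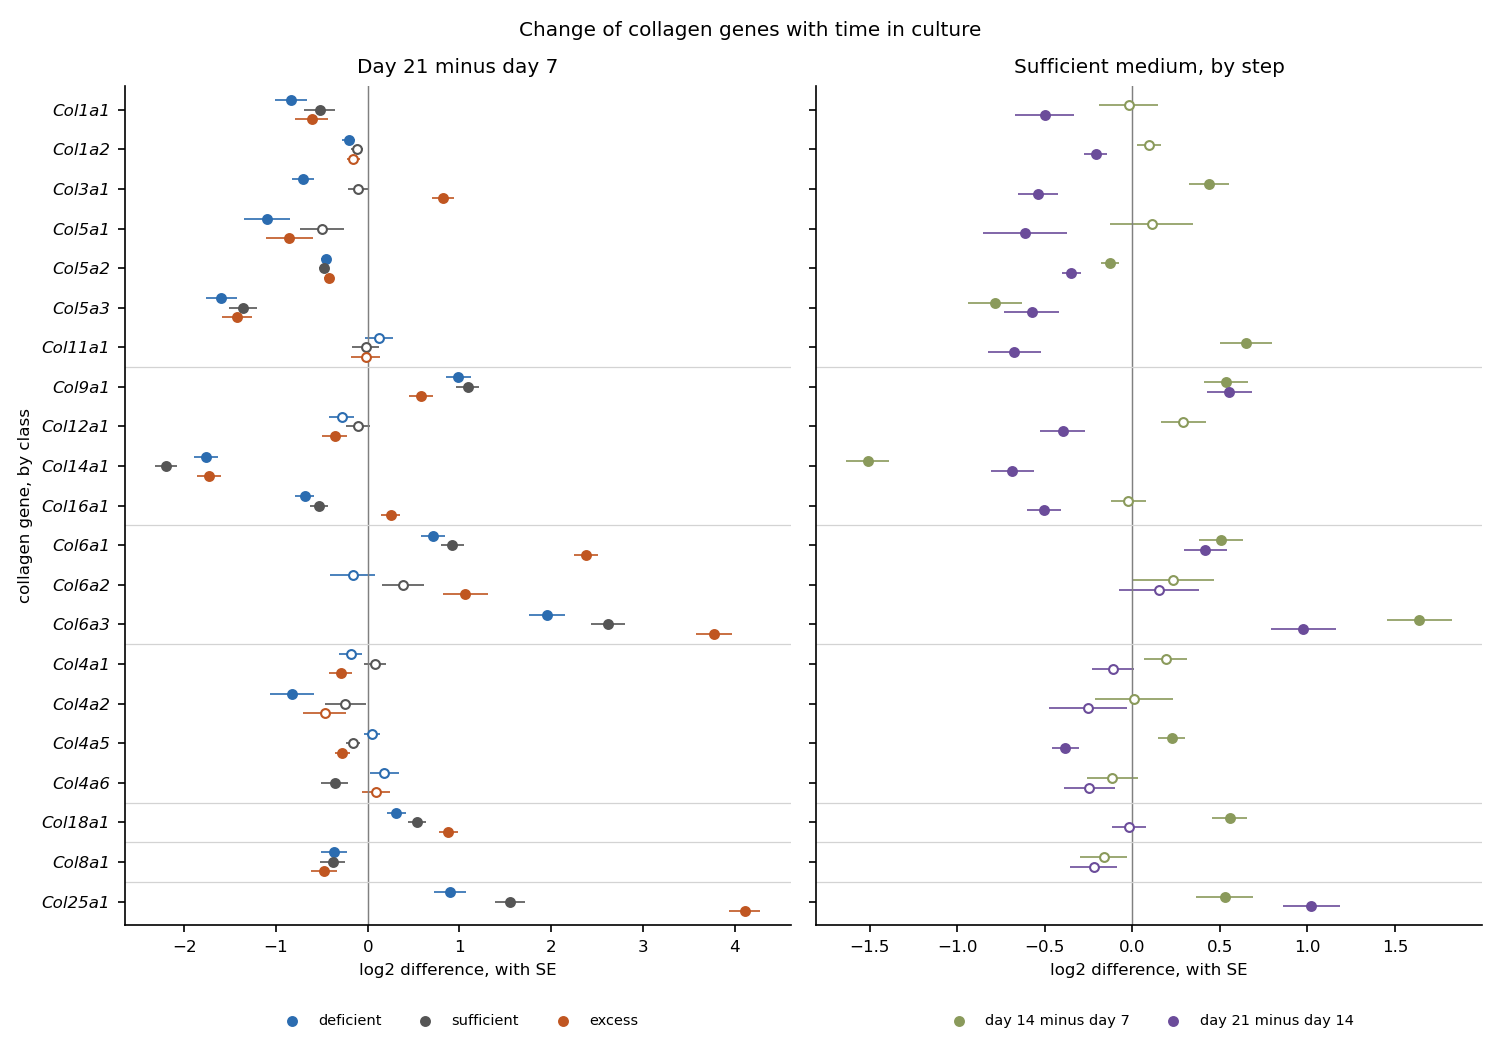
Log2 differences with standard errors are shown for the 21 collagen genes that passed the filter, grouped by class. The left panel gives day 7 to day 21 in the 3 media, and the right panel both steps in sufficient medium. Filled points are past an adjusted p of 0.05. Col6a3 rose by 2.62 and Col14a1 fell by 2.20 in sufficient medium, and the change of Col25a1 was 0.90 in deficient and 4.11 in excess medium as measured, from day 7 levels that were all below 4.

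Folate deficiency is the study's titled question. No collagen gene passed the threshold in deficient against sufficient medium at day 7, 14 or 21 (limma, 21 genes tested), where 0%, 0.088% and 0.781% of all genes were called. At an unadjusted p under 0.05 there were 1, 4 and 5 collagen genes at the 3 days. The median over the 21 genes was 0.07, -0.14 and -0.14, against medians of -0.00, -0.02 and -0.01 over all genes. Adding the array series as a term called 2 collagen genes at day 21, with 323 of 9095 genes called in all.

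Col3a1 stood closest to the threshold. At day 21 its levels were 11.38, 11.14, 11.06, 11.15 and 11.06 in deficient medium and 11.82, 11.34, 11.68, 11.53 and 11.57 in sufficient medium. Deficient replicate 2 lay above the lowest sufficient array, replicate 2 of the later series, and the other 4 deficient arrays lay below all sufficient ones. The difference was -0.43 ± 0.11 (95% interval -0.66 to -0.20, adjusted p = 0.0532). It was -0.53 with the array series as a term (adjusted p = 0.00114), -0.52 within serials up to 45 (adjusted p = 0.0243), -0.48 without deficient replicate 2 (adjusted p = 0.0398) and -0.49 without sufficient replicate 2 (adjusted p = 0.0372). The difference stayed uncalled without the filter, with the mean of a gene's probe sets and with the replicate number as a block. At day 14 it was -0.38 ± 0.11 and not called, with 11.36, 11.91, 11.97, 11.57 and 11.94 in deficient against 12.32, 12.35, 12.28, 11.85 and 11.84 in sufficient medium. At day 7 it was 0.18 ± 0.12. The change of the Col3a1 difference from day 7 to day 21, -0.61 ± 0.16, missed the threshold (adjusted p = 0.174), where 0.044% of all genes were called. It was -0.66 with the series term (adjusted p = 0.0212), where 54 of 9095 genes were called.

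The other gene called with the series term was Col4a6, a chain of a basement membrane trimer found around smooth muscle. It was 6.56, 6.21, 6.10, 6.38 and 6.13 in deficient and 5.37, 5.84, 5.44, 6.20 and 5.98 in sufficient medium at day 21, and these ranges overlapped. The difference of 0.51 ± 0.15 had an adjusted p of 0.093, and 0.0344 with the series term at 0.55. Without sufficient replicate 4 it was 0.62 (adjusted p = 0.048), and the second Col4a6 probe set, of lower level, differed by 0.08.

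All 3 type VI chains had lower means in deficient than in sufficient medium at days 14 and 21, and none was called. Col6a3 differed by -0.54 ± 0.19 and -0.43 ± 0.19, Col6a2 by -0.55 ± 0.23 and -0.42 ± 0.23, and Col6a1 by -0.20 ± 0.12 and -0.26 ± 0.12. At day 14 the 5 deficient arrays of Col6a3 (8.35, 8.12, 8.34, 8.40 and 8.80) overlapped with the 5 sufficient ones (9.04, 9.59, 8.90, 8.50 and 8.67). The most precise intervals at day 21 were those of Col1a2, -0.13 to 0.14, and Col5a2, -0.08 to 0.13, whereas that of Col4a2 ran from -0.78 to 0.12. At day 7 Col14a1 was 3.74, 4.02, 3.74 and 4.29 in deficient and 4.31, 4.78, 4.68, 4.16 and 4.40 in sufficient medium, a difference of -0.52 ± 0.13 (adjusted p = 0.341).

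Excess folic acid gave called differences, at days 14 and 21. At day 7 no collagen gene was called (limma; 0 at an unadjusted p under 0.05), where 2.37% of all genes were. At day 14, 5 were higher and 0 lower (Col6a3, Col14a1, Col25a1, Col6a1 and Col3a1), where 41.2% of all genes were called (22.3% higher and 18.8% lower). With the series as a term, Col12a1 (0.33, adjusted p = 0.0422) and Col18a1 (0.27, adjusted p = 0.00905) were called higher at day 14 too. At day 21, 8 were higher (Col25a1, Col6a1, Col6a3, Col3a1, Col16a1, Col14a1, Col4a6 and Col18a1) and 3 lower (Col9a1, Col12a1 and Col4a1), where 43.7% of all genes were called (24.4% higher and 19.3% lower). The 5 of 21 collagen genes called at day 14 were a smaller share than that of all genes, and the 11 of 21 called at day 21 a somewhat larger one. Neither difference in share was tested. The median of the 21 differences at day 21 was 0.05, against 0.03 over all genes.

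**Figure D3:**
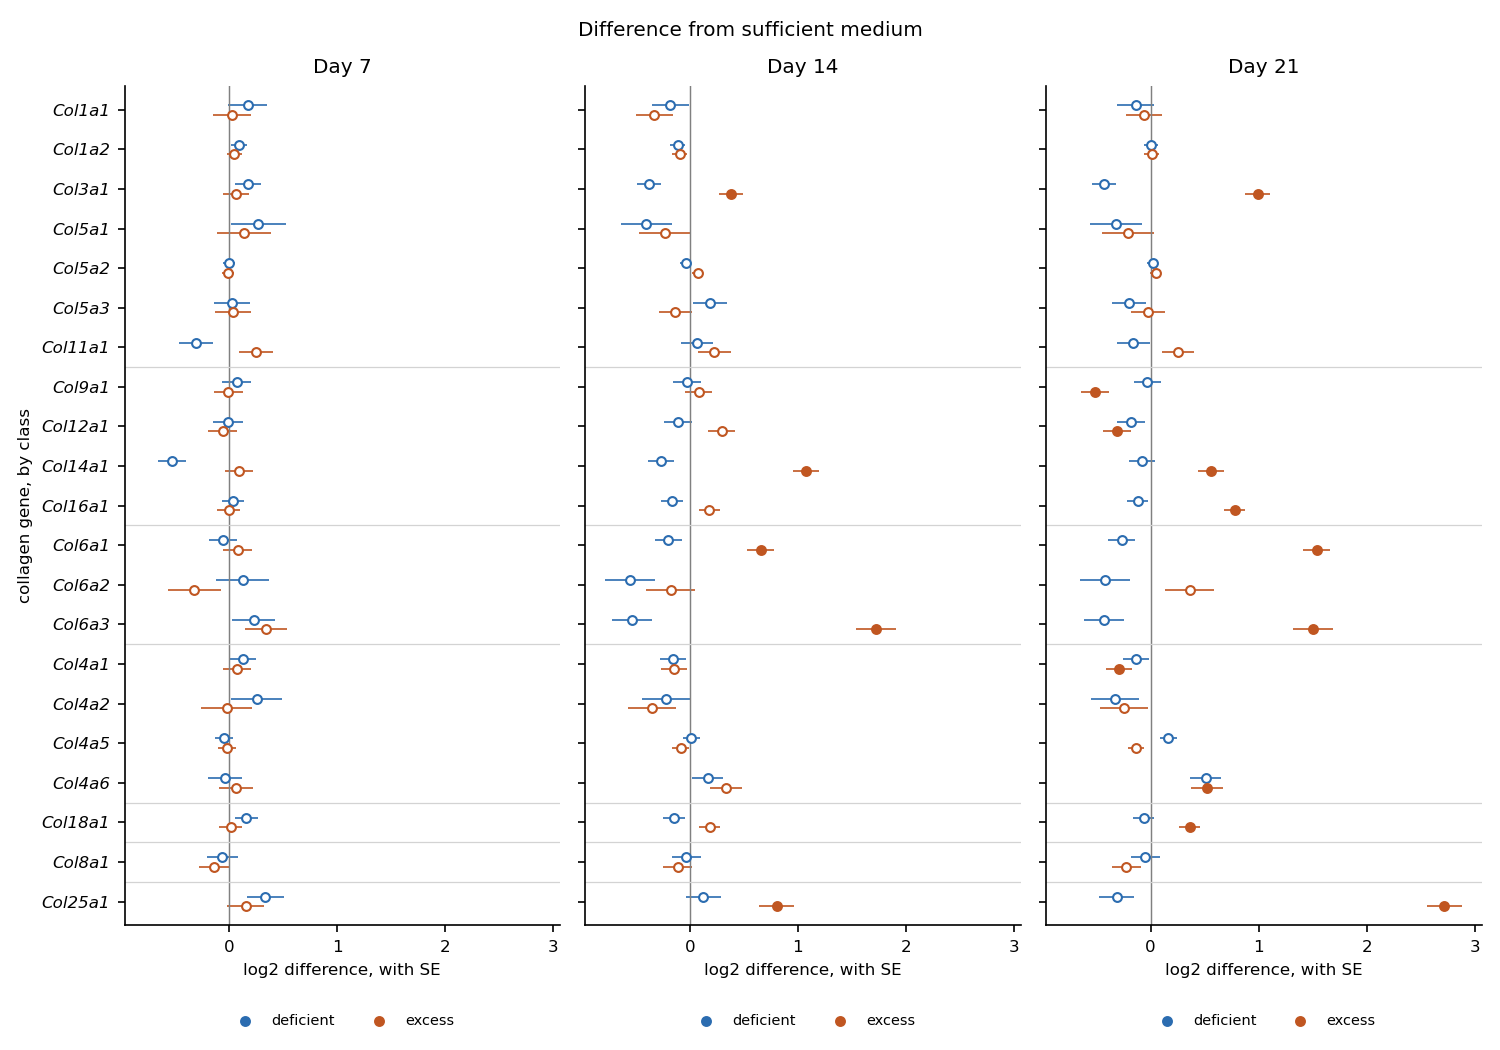
Log2 differences with standard errors of deficient (blue) and excess (orange) against sufficient medium at days 7, 14 and 21 for the 21 collagen genes, grouped by class, with filled points past an adjusted p of 0.05. Orange points move to the right from day 7 to day 21 for Col25a1, Col6a1, Col3a1 and Col16a1, reaching 2.72 for Col25a1, and no blue point is filled.

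In the type VI trimer, 2 of 3 chains were higher in excess medium. Col6a3 was 10.37, 10.42, 10.81, 11.04 and 10.64 at day 14 and 11.56, 11.49, 11.27, 11.89 and 10.88 at day 21, above every sufficient array of the same day. The differences were 1.72 ± 0.19 at day 14 and 1.501 ± 0.186, or 2.83-fold, at day 21 (limma, adjusted p = 1.6e-09 and 1.9e-08). Col6a1 was 5.92, 5.74, 5.49, 5.22 and 5.07 at day 14, above the 4.63 to 4.98 of sufficient medium, and 6.89, 6.66, 7.01, 6.96 and 6.40 at day 21, above its 5.09 to 5.53. Its difference grew from 0.66 ± 0.12 to 1.54 ± 0.12, or 2.90-fold. Col6a2 was 7.04, 6.91, 7.16, 7.45 and 6.76 at day 21, inside the sufficient range that reached 7.51, and its 0.36 ± 0.23 was not called (adjusted p = 0.208, interval -0.11 to 0.82). Without sufficient replicate 1 this difference was 0.56 (adjusted p = 0.045).

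Col25a1 had the largest difference of the family. It was 4.32, 4.19, 4.38, 3.79 and 3.74 in excess medium at day 14, a difference of 0.80 ± 0.16 that was 0.18 (adjusted p = 0.155) with levels under 4 set to 4. It was 6.60, 6.91, 7.29, 6.96 and 7.32 at day 21. These values lay more than 1 log2 unit above every other array of the series, sufficient medium included (3.87 to 4.79). The day 21 difference was 2.72 ± 0.16, or 6.57-fold (adjusted p = 1.1e-16), and 2.52 within serials up to 45. The sufficient level is near background.

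Of the fibrillar genes only Col3a1 was called. It was 12.26, 12.37, 12.69, 12.73 and 12.49 at day 14, overlapping with sufficient medium, and 12.65, 12.51, 12.52, 12.78 and 12.42 at day 21, above all sufficient and deficient arrays of that day. The differences were 0.38 ± 0.11 and 0.99 ± 0.11, or 1.98-fold. Its neighbour Col5a2 differed by 0.05 ± 0.05 at day 21, with an interval of -0.06 to 0.15, and its second probe set by 0.37. Averaging its probe sets called Col5a2 higher by 0.21 (adjusted p = 0.00105). Col1a1 differed by -0.06 ± 0.17 and Col1a2 by 0.01 ± 0.07 at day 21, with intervals of -0.40 to 0.28 and -0.13 to 0.14. Col5a1 and Col5a3 differed by -0.21 ± 0.24 and -0.02 ± 0.16. Col11a1 differed by 0.25 ± 0.15, and by 0.41 (adjusted p = 0.0167) without excess replicate 1.

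Among the FACIT collagens, Col16a1 was 7.28, 7.04, 7.46, 7.45 and 7.41 in excess and 6.82, 6.31, 6.60, 6.57 and 6.46 in sufficient medium at day 21, without overlap. The difference was 0.78 ± 0.10, or 1.71-fold (adjusted p = 4.0e-08). Col14a1 was 4.07, 4.19, 3.97, 3.75 and 4.17 in excess medium at day 14 against 2.95, 3.02, 2.91, 3.02 and 2.87 in sufficient medium, a difference of 1.08 ± 0.12 that crosses the background limit and was 0.09 (adjusted p = 0.48) with levels under 4 set to 4. At day 21 all values of Col14a1 were below 4, and its difference of 0.56 ± 0.12 is between background levels. Col9a1 moved the other way at day 21, with 4.26, 3.76, 3.80, 3.76 and 4.00 in excess and 3.90, 4.36, 4.40, 4.79 and 4.68 in sufficient medium. The groups overlapped, and the difference of -0.51 ± 0.13 (adjusted p = 0.00111) was -0.44 within serials up to 45 (adjusted p = 0.0505). Col12a1 was lower by 0.31 ± 0.13 (adjusted p = 0.0487), a call lost in 13 of 18 alternatives, and its second probe set differed by 0.01. Leaving out sufficient replicate 1, 3, 4 or 6 or excess replicate 1, 2, 3 or 5 ended the Col12a1 call, at -0.25 to -0.32.

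Basement membrane chains divided. Col4a6 was 6.17, 6.03, 6.33, 6.60 and 6.31 in excess medium at day 21, 0.52 ± 0.15 above sufficient medium with overlap, and its second probe set differed by 0.08. Deficient medium lay above the same sufficient arrays by a similar 0.51, which was not called (limma, adjusted p = 0.093). Col4a1 was lower by 0.29 ± 0.12 (adjusted p = 0.0469), a call lost in 14 of 18 alternatives, and both its probe sets were lower, by 0.29 and 0.28. The same 8 single arrays ended the Col4a1 call when left out, at -0.22 to -0.31. Col4a2, which shares the promoter region shown above with Col4a1, differed by -0.25 ± 0.22, and Col4a5 by -0.13 ± 0.08, neither called. Col18a1 was higher by 0.36 ± 0.10, while its second probe set differed by -0.03 and the mean of both by 0.17 (adjusted p = 0.219). Col8a1 differed by -0.23 ± 0.13 and was not called.

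With the beta-actin 3' to 5' difference as a term, the day 21 differences in excess medium were 2.60 for Col25a1, 1.36 for Col6a1, 1.54 for Col6a3, 1.01 for Col3a1 and 0.71 for Col16a1. Within serials up to 45 they were 2.52, 1.496, 1.62, 0.97 and 0.59 in the same order. These 5 genes were called in both.

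**Figure D4:**
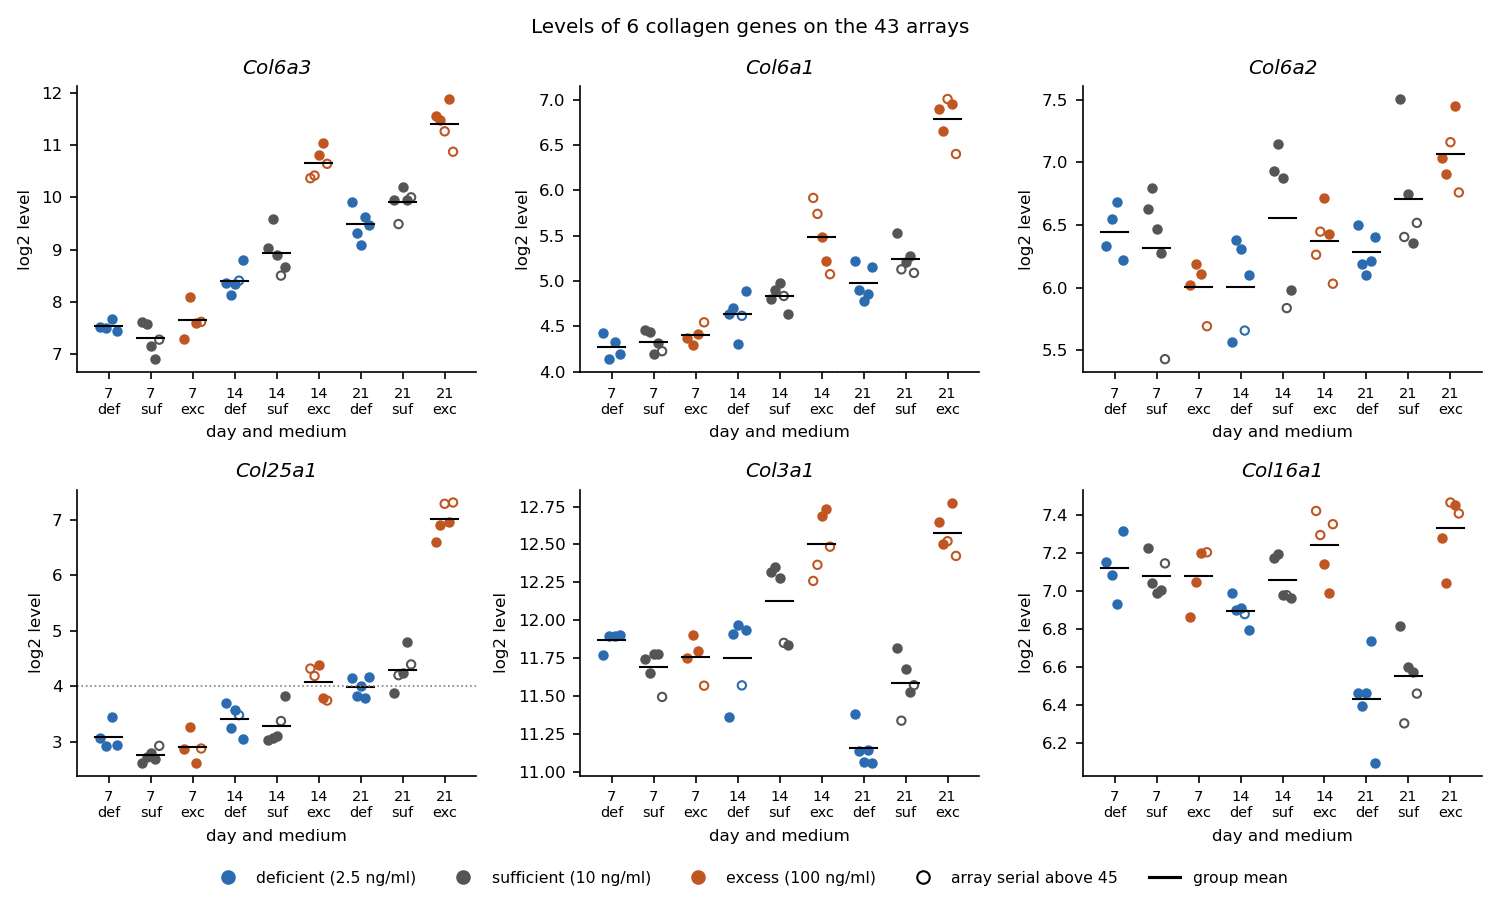
Log2 levels of Col6a3, Col6a1, Col6a2, Col25a1, Col3a1 and Col16a1 on all 43 arrays by day and medium, with open points for serials above 45, black lines for group means and a dotted line at the background limit of 4 where it falls within the axis. At day 21 the 5 excess arrays lie above all sufficient and deficient arrays for Col6a3, Col6a1, Col25a1, Col3a1 and Col16a1, and within their range for Col6a2.

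The growth of the excess difference was tested directly as its change from day 7 to day 21, for which 24.5% of all genes were called (17% higher and 7.53% lower). Of the collagen genes 6 had a larger (higher) difference at day 21 and 1 a lower one. The changes were 2.56 ± 0.24 for Col25a1, 1.45 ± 0.18 for Col6a1, 1.16 ± 0.27 for Col6a3, 0.92 ± 0.16 for Col3a1 and 0.78 ± 0.15 for Col16a1 (limma, largest adjusted p = 0.00148). For Col25a1 all day 7 levels were below 4, so its day 7 difference is between background levels. That gene also passed the filter through some groups only. Col14a1 (0.47 ± 0.18, adjusted p = 0.0495) and Col9a1 (-0.51 ± 0.18, adjusted p = 0.0399) were near the threshold, and their calls were lost with the same sign in 16 and 14 of 27 alternatives, with values of 0.36 to 0.49 and -0.42 to -0.51 where leaving out a single array ended the call. With levels under 4 set to 4, the Col14a1 change turned to -0.0923 (adjusted p = 0.657), and within serials up to 45 the Col9a1 change was -0.40 (adjusted p = 0.247). With the series as a term, Col18a1 (0.33, adjusted p = 0.0317) and Col4a1 (-0.38, adjusted p = 0.0333) were called as well. The same change in deficient medium was called for 0 of 21 genes, with 5 at an unadjusted p under 0.05.

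Levels over time in the other media show the same genes from another side, with day 7 arrays of their own. In deficient medium 5 collagen genes rose and 10 fell from day 7 to day 21, where 64.8% of all genes were called (30.7% higher and 34.1% lower), and in excess medium 8 rose and 9 fell, where 60% were called (34.6% higher and 25.4% lower). Col25a1 was below 4 on all day 7 arrays, and its change of 0.90 ± 0.17 in deficient medium was 0.07 (adjusted p = 0.607) with levels under 4 set to 4. Col3a1 fell by 0.71 ± 0.12 in deficient medium and rose by 0.82 ± 0.12 in excess medium. Col16a1 fell by 0.69 ± 0.11 in deficient medium, and its rise of 0.25 ± 0.11 in excess medium was lost in 9 of 17 alternatives. Col6a3 rose in all 3 media, by 1.96 ± 0.20, 2.62 ± 0.19 and 3.77 ± 0.20 in deficient, sufficient and excess medium. Against sufficient medium, its change in deficient medium differed by -0.66 and was not called (limma, adjusted p = 0.369). In excess medium it differed by 1.16 (adjusted p = 0.00148). Col6a2 rose in excess medium only, by 1.06 ± 0.24, a difference between media that was not called (0.68 ± 0.33 against sufficient medium, adjusted p = 0.138). Col5a3 fell by 1.60 ± 0.17, 1.36 ± 0.16 and 1.42 ± 0.17, and Col5a2 by 0.45 ± 0.06, 0.48 ± 0.05 and 0.42 ± 0.06.

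Genes that process, crosslink, cut and bind collagen were taken from a list of 66, of which 40 passed the filter. In deficient against sufficient medium 0 of 40 were called at any day. In sufficient medium 11 rose and 12 fell from day 7 to day 21, near the 29.6% and 33.1% of all genes. Of the 12 tested modifying enzymes 7 fell and 4 rose: P4ha3, a catalytic subunit of prolyl 4-hydroxylase, fell by 0.96 ± 0.07, Plod3, a lysyl hydroxylase and glycosyltransferase, by 0.72 ± 0.09 and P3h1, a prolyl 3-hydroxylase, by 0.69 ± 0.10. Serpinh1, the collagen chaperone HSP47, was 13.89 ± 0.03 at day 7 and 13.65 ± 0.05 at day 21 (SD, n = 5 and 5). Rising genes included Itga1, the α1 subunit of a collagen-binding integrin, by 2.14 ± 0.20, Mmp2, a gelatinase, by 2.04 ± 0.15 from background, and Mmp24, a membrane metalloproteinase, by 1.24 ± 0.11.

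In excess against sufficient medium at day 21, 5 of these 40 genes were higher and 13 lower, where 24.4% and 19.3% of all genes were. P4ha2, a catalytic subunit of prolyl 4-hydroxylase, was 10.00 ± 0.13 in sufficient and 9.00 ± 0.14 in excess medium (SD, n = 5 and 5), a difference of -1.001 ± 0.068 (adjusted p = 4.6e-15), and P4ha1, Plod1 and Plod2 were also lower. In all, 4 of 12 modifying enzymes were lower and 0 higher, and whether these shares differ from those of all genes was not tested. Itga1 was lower by 0.95 ± 0.20 and Mmp19 by 0.77 ± 0.23. Higher were Mmp2 by 0.91 ± 0.15, the crosslinking enzyme Loxl1 by 0.39 ± 0.06 and Reck, a membrane inhibitor of metalloproteinases, by 0.31 ± 0.10, together with Mmp16 and Ddr2. At day 14 the list had 4 higher and 10 lower genes, where 22.3% and 18.8% of all genes were called, with Mmp19 at -1.04 ± 0.23, Mmp24 at -0.55 ± 0.11 and P4ha2 at -0.37 ± 0.07. At day 7, where 2.37% of all genes were called, only Fkbp10 and P3h3 were, both lower, by 0.35 and 0.49. The median of the 40 differences at day 21 was -0.04, against 0.03 over all genes.

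**Figure D5:**
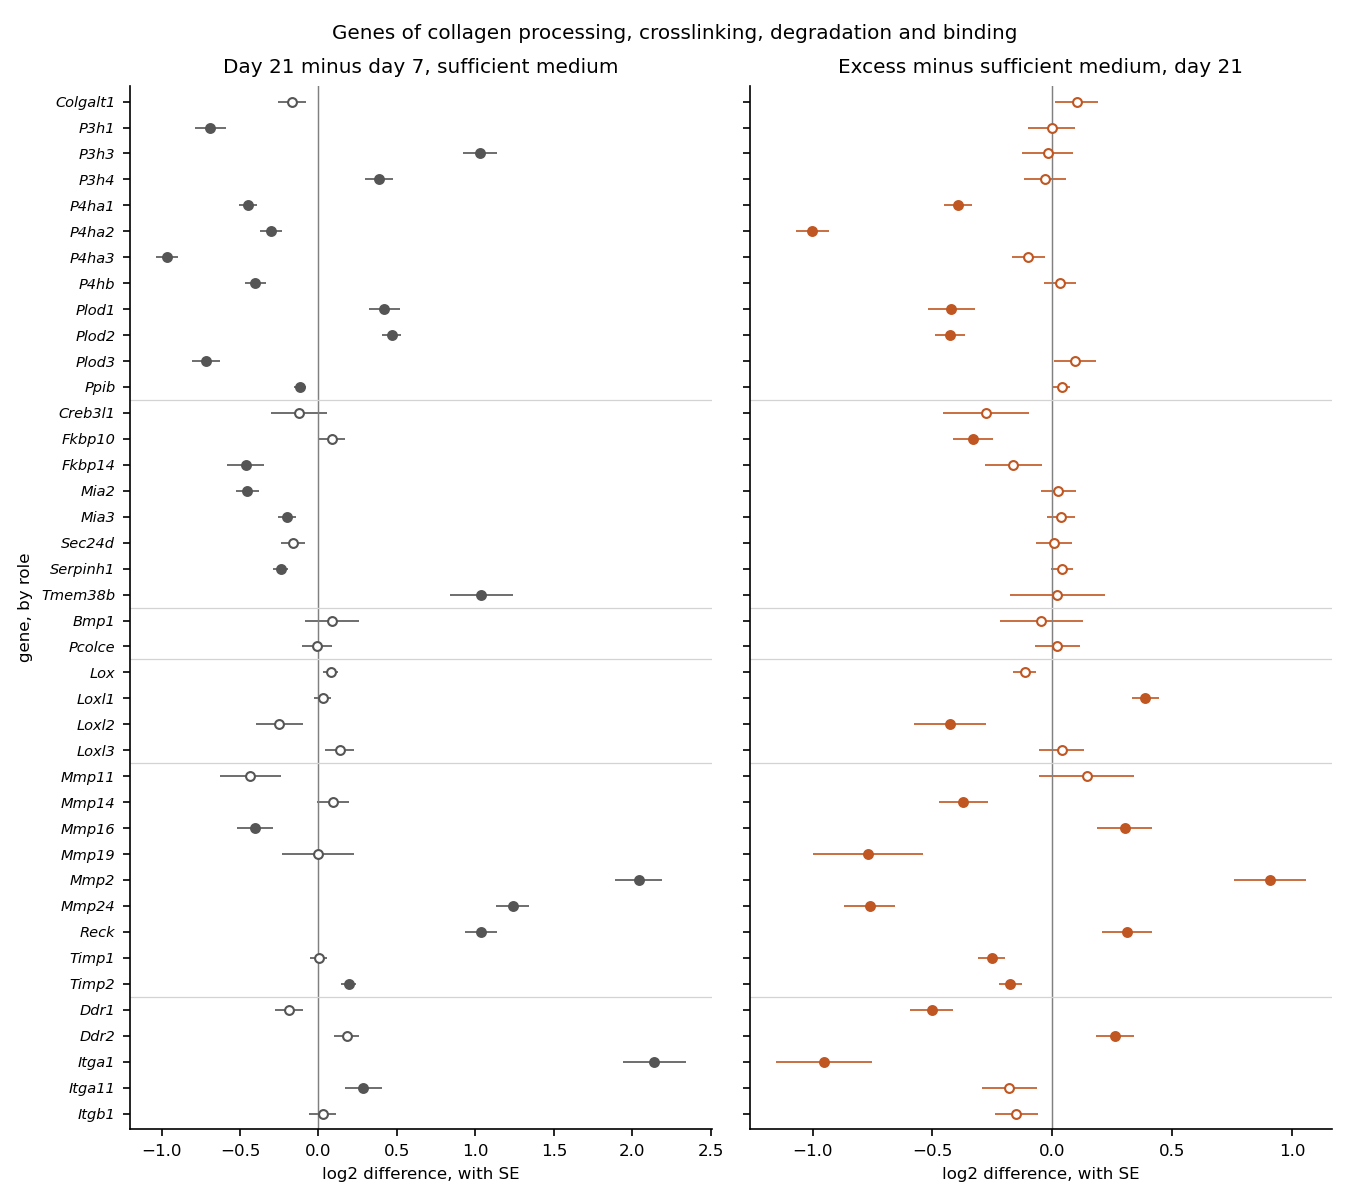
Log2 differences with standard errors for the 40 tested genes of collagen modification, export, propeptide cleavage, crosslinking, degradation and binding, ordered by role, from day 7 to day 21 in sufficient medium (left) and for excess against sufficient medium at day 21 (right), with filled points past an adjusted p of 0.05. Mmp2 lies to the right in both panels (2.04 and 0.91), and Itga1 lies to the right on the left (2.14) and to the left on the right (-0.95).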

How the data were processed

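Total RNA of the 43 samples was labelled with a 3' IVT kit and hybridised to Affymetrix rat arrays, per the labels' protocols. The deposited table holds log2 values of 31099 probe sets that the authors made with GCRMA, per the submitters' processing notes, which name no version. GCRMA corrects background by probe sequence, so that low values cluster near background, and normalizes between arrays. Values lay between 0.84 and 15.0 and array medians between 3.66 and 3.72. Scanner files were not used here, and the number of arrays limits the precision. Groups, replicate numbers and serials were read from the sample titles, where a few serials occur on more than 1 array.

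Gene names came from the platform's annotation: 20826 probe sets had 1 symbol, 436 several and 9780 none, and 57 controls were left out. A reference table of RefSeq genes matched 20758 of the named ones and changed 0 symbols. Probe sets above 4 on at least 4 arrays were kept, which left 9095 genes. All 9 groups entered 1 limma fit (limma 3.58.1, R 4.3.3; 34 residual and 4.12 prior degrees of freedom), with 13 comparisons, two-sided tests and Benjamini-Hochberg adjustment over all 9095 genes. Errors of differences are SEs, and errors of levels are SDs. Levels of different probe sets were not compared. On simulated data, the fit was checked for recovery of known changes. Plots were drawn with matplotlib 3.10.9 under Python 3.11.15.

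The alternatives were no filter, the mean of a gene's probe sets, quantile normalization, the array series or the beta-actin 3' to 5' difference as a term, serials up to 45 alone, the replicate number as a block and leaving out each array. Setting levels under 4 to 4 was added after seeing the data.

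The collagen genes, their classes, the 66 processing genes and the tests were chosen with earlier results of these data known. Every collagen gene was accounted for. Values are given for those called in at least 1 comparison at 1.5-fold or more and for the largest of each class, and for up to 3 processing genes in each direction per comparison.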

Additional observations from a re-analysis of the deposited data

Results flagged for a closer look

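In 13 of 189 combinations of a collagen gene and a group (6.88%), 1 array stood apart from the rest of its group by Dixon's criterion, which chance meets in about 1 of 20 groups. Of these 13 flags, 8 fell on arrays with serials above 45. Several flags fell on the same array, so they are not separate arrays. In sufficient medium at day 7, replicate 6 was low for Col1a1 (13.56), Col1a2 (14.16), Col4a2 (11.10), Col5a1 (10.85) and Col9a1 (3.14). Col4a2 was low in excess medium at day 7 on replicate 6 (11.39). Col12a1 was high on replicate 5 of deficient medium at day 14 (8.23) and on replicate 4 of excess medium at day 21 (7.95). Col14a1 was high on replicate 6 of deficient medium at day 14 (2.85) and low on replicate 2 of sufficient medium at day 21 (1.95), both at background. Col3a1 was high on replicate 2 of deficient medium at day 21 (11.38) and low on replicate 1 of deficient medium at day 7 (11.77). Col4a5 was low on replicate 4 of excess medium at day 14 (10.41).

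The difference between excess and sufficient medium changed from day 7 to day 21, by the test of that change, for Col25a1 (2.56), Col6a1 (1.45), Col6a3 (1.16), Col3a1 (0.92), Col16a1 (0.78), Col14a1 (0.47) and Col9a1 (-0.51).

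Col8a2 was outside the tests, as it did not pass the filter, and reached 4.29 on replicate 3 of excess medium at day 14, where the other 4 arrays had 3.06 to 3.74.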

How the results depend on the processing

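Of 93 called collagen results in the 13 comparisons, 63 kept their call under every alternative run and 30 lost it under at least 1, while 26 of 180 uncalled results were called under at least 1. One changed sign: the change of the excess difference of Col14a1 was -0.0923 with levels under 4 set to 4. For deficient against sufficient medium at day 21, main count 0, quantile normalization, serials up to 45, the beta-actin term and levels set to 4 each called 1 collagen gene, Col3a1 (lower), and the series term called 2. The series term also called 1 gene (Col3a1) in the change of the deficiency difference, main count 0. Excess against sufficient medium at day 14 gave 8 called genes without the filter and 3 with levels set to 4, against 5. Sufficient medium from day 7 to day 21 gave 19 without the filter, against 12, the added genes lying at background. Without the filter 41 instead of 21 collagen genes were tested. Of 14217 genes, 3781 were then called for excess medium at day 14 and 6359 for time in sufficient medium. With the filter these counts were 3743 and 5696 of 9095 genes. No pairing of the samples by replicate number was seen. Deviations of 33 same-numbered pairs of a day had a median correlation of -0.07, with 7 over 0.1. Of 23 arrays, 4 correlated best with their own number. This check cannot tell whether same-numbered arrays share a culture. With the replicate number as a block the counts were 9 for excess at day 21 (main 11), 5 at day 14, 12, 15 and 16 for time in sufficient, deficient and excess medium, 10 and 14 for the steps in sufficient medium, 6 for the change of the excess difference and 0 for the remaining comparisons. Leaving out each array in turn gave 0 to 1 for deficient medium at day 21, 5 to 6 and 9 to 11 for excess medium at days 14 and 21, 11 to 13, 14 to 16 and 14 to 18 for time in sufficient, deficient and excess medium, 10 to 11 and 12 to 15 for the steps, 5 to 8 for the change of the excess difference and 0 for the others. The cause of these shifts was not tested. Among the called results for excess at day 21, those of Col3a1, Col6a1, Col6a3, Col16a1, Col25a1 and Col4a6 kept their call under every alternative. Signal near background limits Col9a1, Col14a1, Col18a1 and Col25a1.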
